A study of Mus musculus with 15 samples.

Results

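Phase II conjugation enzymes attach a polar group to drugs, hormones, bile acids and products of oxidation so that the liver and kidney can export them. The genes described here are those of the mouse array annotation whose symbols place them in 3 families: UDP-glucuronosyltransferases (UGT), which transfer a sugar, glutathione S-transferases (GST), which transfer glutathione, and cytosolic sulfotransferases (SULT), which transfer sulfate. They were chosen by symbol alone among probe sets that name 1 gene, with the probe set of highest mean over all arrays standing for each gene. This gave 44 of 18193 genes, with 11 UGT, 20 GST and 13 SULT members. Hepatocytes are the main site of these reactions in the body, and glucuronidation in particular is used as a sign of hepatocyte maturity in culture. UGT2B and UGT2A enzymes act on steroids and bile acids, alpha-class GST on peroxides and toxin epoxides, and SULT1 enzymes on phenols and catechols.

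The series followed mouse cells toward the hepatocyte state and back, and its title names DNA methyltransferases and the reversibility of hepatogenic differentiation. The dHD28 cells were HD28 cells whose second differentiation medium was exchanged for the maintenance medium of mesenchymal stromal cells (MSC). The HD28 cells were MSC given HGF (20 ng/ml), bFGF (10 ng/ml) and nicotinamide (0.61 g/L) for 7 days in IMDM, followed by a second medium with oncostatin M (20 ng/ml), the glucocorticoid dexamethasone (1 µmol/L) and ITS+ premix. The MLC were primary hepatocytes moved into MSC medium with human TGF-β1 at 10, then 5, then 1 ng/ml, ending at day 28, and kept in that medium afterwards. The Hepatocyte group held primary mouse hepatocytes in DMEM/F12 with 10% serum, and the MSC group held mouse stromal cells in low-glucose DMEM with 10% serum. Each group had 3 arrays. The labels give no strain, age or transgene and leave unsaid whether the replicates of a group are different animals or cultures, so p-values measure the spread between these samples, which may be technical.

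Array medians lay between 4.84 and 4.95 on the log2 scale of RMA, the summary in which the values were deposited, and the lower quartiles averaged 3.53. All 44 members were tested. In 40 of them at least 1 group mean was above that quartile, while Sult2a2, Sult2b1, Sult3a1 and Sult6b1 were below it in every group, so that nothing is read from them. The summed signal of 11 measured hepatocyte markers, such as albumin and transthyretin, was between 16.56 and 16.71 (log2) in the hepatocyte arrays and between 7.76 and 8.27 in all other arrays except HD28 replicate 3, where it was 15.44. The sum of 8 stromal markers was between 14.48 and 15.28 in all dHD28, HD28, MLC and MSC arrays and between 8.70 and 10.01 in hepatocytes. This sum followed the collagen genes Col1a1, Col1a2 and Col3a1, and Cd44 and Pdgfrb were also lower in hepatocytes. Thy1 and Nt5e overlapped between hepatocytes and MSC. Eng was higher in hepatocytes (7.49, 8.30 and 8.28) than in MSC (6.63, 6.45 and 6.40). Several arrays lay nearer to an array of another group than to their own: by root mean square log2 distance over all genes, MLC replicate 3 was 0.210 from MSC replicate 3 and 0.434 from the nearest MLC array, and dHD28 replicate 2 was 0.228 from MSC replicate 1 and 0.539 from the nearest dHD28 array. The signal of poly-A spike-in controls was high in 6 arrays and low in 9. Of 18193 genes, 397 had less signal in the high arrays and 6 had more. With so small a share, finding 0 of the 44 members among them does not set the members apart. Gstk1 differed by -0.83 (log2, adjusted p = 0.13) and Gstm7 by 0.30 (adjusted p = 0.042) between the classes. The calls of Gstk1, Gstt3, Gstm2, Gsta3 and Gstm6 in HD28 changed with the handling of this class, as given below.

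In the hepatocytes most of the families were expressed far above the stromal level, whereas HD28 cells gained a small subset led by the phenol sulfotransferase Sult1a1 and the mu-class transferases Gstm1 and Gstm2. By limma's F test over the 5 groups (adjusted p under 0.05), 32 of 44 members differed, against 46.8% of all genes. By the probe sets used, the other 12 were Gstm7, Gsto1, Gsto2, Gstt4, Sult1c1, Sult1e1, Sult2a2, Sult2b1, Sult3a1, Sult4a1, Sult6b1 and Ugt8a.

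**Figure D1:**
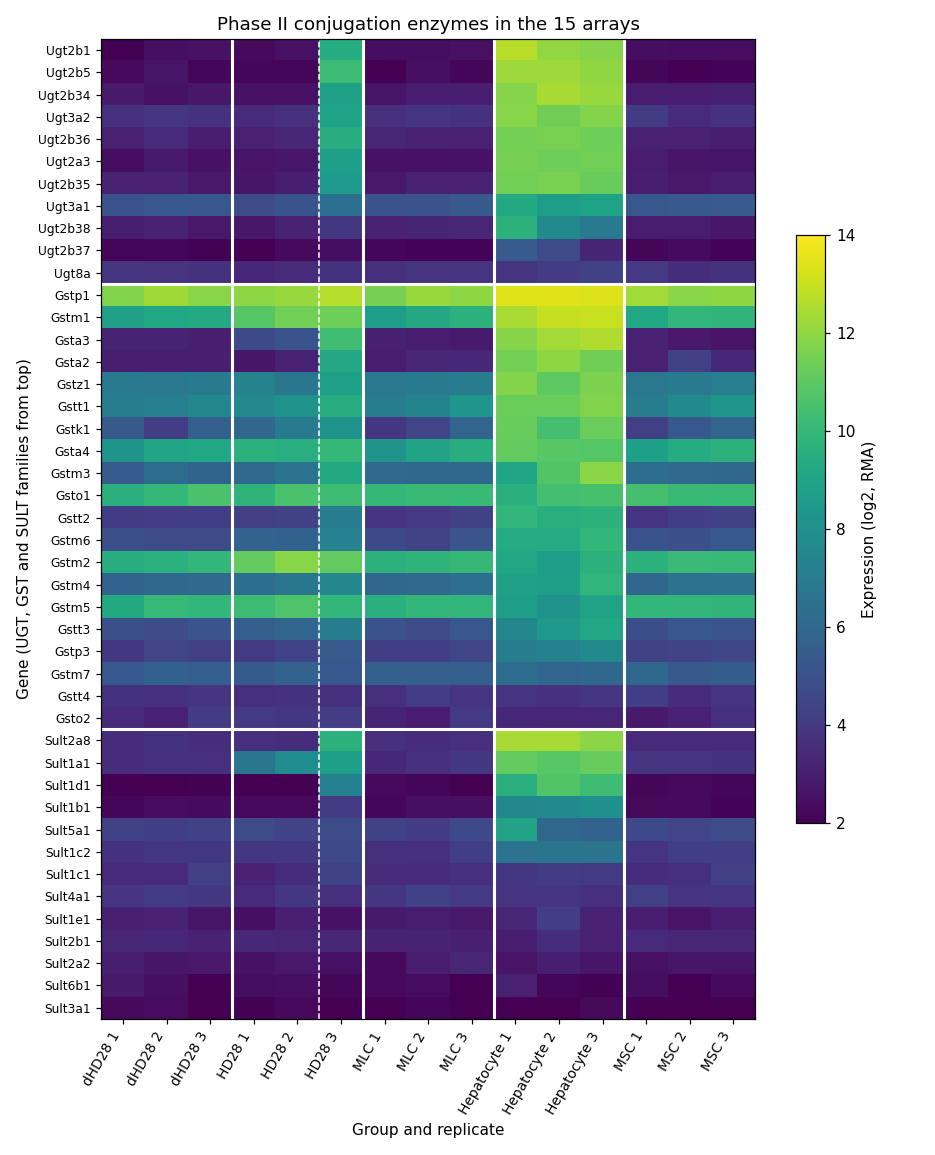
Expression of the 44 members (rows, grouped as UGT, GST and SULT from the top) in the 15 arrays (columns), coloured by log2 RMA value from 2 to 14; solid lines separate groups and families, and the dashed line sets HD28 replicate 3 apart. The hepatocyte columns are brighter than the MSC columns for the 30 members that rose in hepatocytes, HD28 replicate 3 is intermediate for many of these, and the dHD28, MLC and MSC columns look alike.

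The 250 bases before the annotated start are shown for Sult1a1, Gsta3, Gstm1 and Gstm2, the members whose rise in HD28 was found with and without HD28 replicate 3, and for Ugt2a3, a hepatocyte member that stayed at the stromal level in HD28 replicates 1 and 2. The sequences are from RefSeq on GRCm38.p6, 5′ to 3′ along the strand of the gene, and capitals mark every match on either strand to the motifs searched. The Sult1a1 stretch is chr7:126676419-126676668 (minus strand), Gsta3 is chr1:21240335-21240584 (plus), Gstm1 is chr3:108017974-108018223 (minus), Gstm2 is chr3:107986421-107986670 (minus) and Ugt2a3 is chr5:87337196-87337445 (minus).
Sult1a1: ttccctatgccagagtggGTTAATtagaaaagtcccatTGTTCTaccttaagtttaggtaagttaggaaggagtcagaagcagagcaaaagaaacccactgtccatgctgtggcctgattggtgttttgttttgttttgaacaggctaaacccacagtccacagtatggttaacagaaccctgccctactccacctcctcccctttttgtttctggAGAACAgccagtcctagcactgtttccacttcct
Gsta3: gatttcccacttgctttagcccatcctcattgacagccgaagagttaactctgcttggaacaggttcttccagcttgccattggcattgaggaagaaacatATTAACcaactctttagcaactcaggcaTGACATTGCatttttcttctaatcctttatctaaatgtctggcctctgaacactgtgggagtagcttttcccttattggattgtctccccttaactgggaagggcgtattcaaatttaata
Gstm1: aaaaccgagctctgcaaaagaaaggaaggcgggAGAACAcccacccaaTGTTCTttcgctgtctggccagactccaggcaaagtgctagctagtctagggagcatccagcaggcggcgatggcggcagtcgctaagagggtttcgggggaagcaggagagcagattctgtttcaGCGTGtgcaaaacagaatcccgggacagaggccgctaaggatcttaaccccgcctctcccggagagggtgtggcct
Gstm2: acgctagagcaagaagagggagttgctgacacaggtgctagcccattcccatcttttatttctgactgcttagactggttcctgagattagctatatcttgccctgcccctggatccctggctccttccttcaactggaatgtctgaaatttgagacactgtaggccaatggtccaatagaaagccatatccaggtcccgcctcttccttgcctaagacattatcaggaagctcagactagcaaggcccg
Ugt2a3: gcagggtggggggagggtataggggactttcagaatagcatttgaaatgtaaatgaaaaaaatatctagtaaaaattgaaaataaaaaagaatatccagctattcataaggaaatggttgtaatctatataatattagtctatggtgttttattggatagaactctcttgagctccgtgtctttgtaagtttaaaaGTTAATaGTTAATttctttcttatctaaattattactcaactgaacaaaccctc
Matches in the window from 250 bases before to 50 after the start were counted in 39 members that matched the table, with 50 promoters in all, and in all 27025 genes of the table, without regard to overlap between motifs. AGAACA, the letters bound by a single glucocorticoid receptor subunit, was in 9 of 39 members (23.1%) and in 21.3% of all genes, and lay at -212 and -34 in Sult1a1 and at -217 and -202 in Gstm1. The Gstm1 sites belong to 1 of its 2 annotated starts, the one printed, and the window of the other held no match to this motif. GTTAAT, 1 arm of the palindrome bound by the hepatocyte factor HNF1, was in 5 members (12.8%) and in 8.24% of all genes. It was found in Gsta3, Sult1a1, Sult1d1, Ugt2a3 and Ugt3a1. The antioxidant response core TGACNNNGC was in 3 members (7.69%), Gsta3, Gstm5 and Gstm7, and in 14.0% of all genes. The dioxin response core GCGTG was in 9 members (23.1%) and in 35.2% of all genes. The full HNF1 palindrome was in 0 members and in 3 genes of the table. Gstm2 held none of these letters in its window. A match describes the letters only.

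Comparison of HD28 with MSC asks which conjugation enzymes the hepatogenic protocol raised. A gene was called changed when limma's adjusted p was below 0.05 and the groups differed at least 2-fold. By this rule 5 of the 44 members rose and 0 fell, where 6.77% of all genes changed, 3.24% up and 3.52% down. Without HD28 replicate 3 the count was 4 up and 0 down, with Gstm6 the member lost, where 5.77% of all genes changed, 2.7% up and 3.06% down. No UGT member passed the test. The median difference from MSC was 0.79 over the 20 GST members and 0.09 over the 13 SULT members (log2), beside -0.08 over all genes, and 0.18 for GST without HD28 replicate 3.

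Sult1a1, which sulfates phenols and simple aryl drugs, had values of 6.71, 7.83 and 8.78 in HD28, against 3.79, 3.85 and 3.74 in MSC. Each HD28 array was far above each MSC array, and the rise was 15.8-fold (log2 3.98 ± 0.36, SE, adjusted p = 2.2e-05). It was 3.48 on the log2 scale without HD28 replicate 3. The values in hepatocytes, 11.13, 10.87 and 11.22, were above every HD28 array. Within the high spike-in class, with 1 array per group, the difference from MSC was 4.03, and within the low class it was 3.95.

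The mu-class enzymes conjugate glutathione to epoxides and reactive carbonyls. Gstm1 had 10.82, 11.46 and 11.37 in HD28, against 9.21, 9.94 and 9.86 in MSC, without overlap. It rose 2.93-fold (log2 1.55 ± 0.28, adjusted p = 0.0037). Gstm2 had 11.12, 11.88 and 11.10 in HD28, against 9.71, 10.17 and 10.07 in MSC, and rose 2.61-fold (log2 1.38 ± 0.27, adjusted p = 0.0053). HD28 replicate 3 lay within the range of, or just below, the other HD28 arrays in both genes. Gstm2 was called neither higher nor lower in hepatocytes than in MSC, and its 3 HD28 arrays were above all other arrays of the series. Gstm6 had 5.75, 5.72 and 7.33 in HD28, against 5.01, 4.93 and 5.29 in MSC. Its rise of 1.19 (log2, adjusted p = 0.048) was 0.66 (adjusted p = 0.10) without HD28 replicate 3. The other neighbours of the cluster did not pass, with differences of 1.17 for Gstm3, 0.50 for Gstm4, 0.40 for Gstm5 and -0.12 for Gstm7. Another Gstm7 probe set, tested among all probe sets, differed by 1.04 (adjusted p = 0.096).

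Gsta3 encodes the alpha-class enzyme that in mouse detoxifies aflatoxin epoxide. It stood at 4.63, 5.10 and 10.30 in HD28, against 3.12, 2.81 and 2.62 in MSC. All HD28 arrays were higher, but replicate 3 was far above the other HD28 arrays. The rise was 3.83 ± 1.03 (log2, adjusted p = 0.030) with all arrays and 2.02 (adjusted p = 0.00026) without replicate 3. The MSC mean was under the lower quartile, so the fold is approximate. The call ended without any 1 of MSC replicates 1, 2 and 3 (adjusted p = 0.072, 0.073 and 0.078), and a second Gsta3 probe set, tested among all probe sets, gave 2.20 (adjusted p = 0.25).

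Some other GST members were higher in each HD28 array than in each MSC array without passing in the model of group means. Gsto2 had 4.02, 3.96 and 4.20 in HD28 and 2.84, 3.10 and 3.63 in MSC, with an MSC mean under the lower quartile. Gstm5 had 10.25, 10.71 and 9.955 in HD28 and 9.950, 9.93 and 9.84 in MSC. Gstk1, the mitochondrial and peroxisomal transferase, had 5.95, 6.92 and 8.17 in HD28 and 4.28, 5.30 and 5.92 in MSC (log2 1.85, adjusted p = 0.085). Gstt3, of the theta class, had 5.65, 5.93 and 7.03 in HD28 and 4.89, 5.25 and 5.18 in MSC (log2 1.10, adjusted p = 0.089). Both passed once the model held a term for spike-in class (adjusted p = 0.037 for Gstk1 and 0.038 for Gstt3). Within the high class the differences were 2.64 and 1.04, and within the low class 1.45 and 1.12 (log2). The abundant pi-class gene Gstp1 and the omega-class gene Gsto1 overlapped between the groups.

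The probe sets of the Ugt1a locus name 8 symbols, since its transcripts share their last exons, and are therefore outside the 44 members. These enzymes glucuronidate bilirubin and many drugs. The first of the 3 sets, which is also plotted, had 10.46, 9.94 and 11.30 in HD28, against 7.35, 8.33 and 9.21 in MSC, and the other Ugt1a sets also did not overlap. The differences were 2.27 (adjusted p = 0.031), 1.87 (adjusted p = 0.13) and 2.44 (adjusted p = 0.036) for the 3 sets. They were 1.90, 1.48 and 2.06 without HD28 replicate 3, and 0 of 3 passed (adjusted p = 0.11, 0.30 and 0.12).

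**Figure D2:**
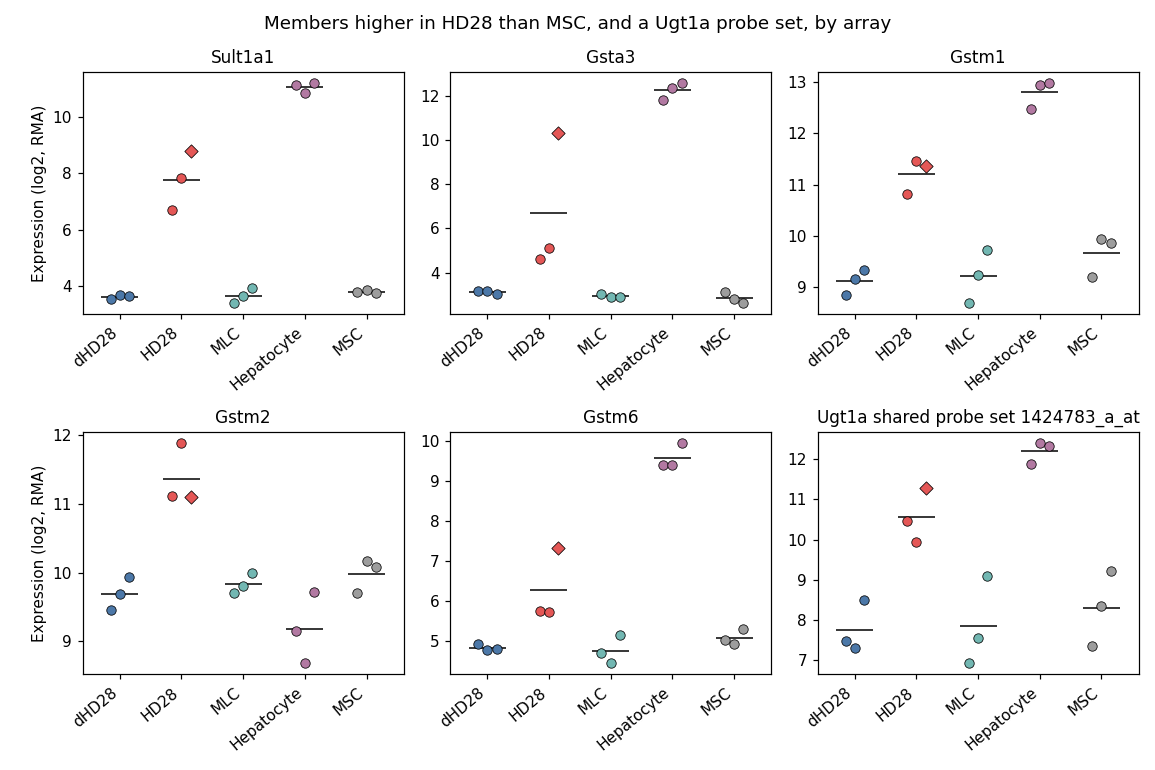
Log2 RMA value by array (points) and group mean (lines) for Sult1a1, Gsta3, Gstm1, Gstm2, Gstm6 and a probe set shared by Ugt1a transcripts; the diamond is HD28 replicate 3, and the vertical axes differ and do not start at 0. In each panel the 3 HD28 arrays lie above the 3 dHD28 and 3 MSC arrays, and in Gstm2 they also lie above the hepatocytes.

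Most hepatocyte members stood higher in HD28 replicate 3 than in HD28 replicates 1 and 2, so the values of this array are given apart. Of the 30 members higher in hepatocytes than MSC, 28 were higher in this array than in both other HD28 arrays (93.3%). Among all 2149 genes higher in hepatocytes the share was 74.1%. In 11 members (25%) it was over 3 log2 units above the mean of replicates 1 and 2, against 1.48% of all genes, and in 0 members over 3 units below. Ugt2b5 had 10.25 in replicate 3, against 2.19 and 2.21 in replicates 1 and 2, a gap of 8.04. Gaps of 5.39 to 6.97 were found in Ugt2b1, Gsta2, Ugt2b36, Ugt2b34, Sult2a8, Ugt2a3, Ugt2b35, Gsta3, Sult1d1 and Ugt3a2. Apart from Gsta3, the mean of replicates 1 and 2 in these members differed from the MSC mean by -0.60 (Gsta2) to 0.16 (Ugt2b36) on the log2 scale.

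Over the 30 members HD28 replicate 3 lay below the hepatocyte mean by a median of 2.27 log2 units, with differences from -4.18 to -0.75. Ugt2b37 was near the stromal level in this array as well, at 2.43 against an MSC mean of 2.22. Ugt2b38 had 3.93 in it, against 2.98, 2.91 and 2.79 in MSC. Of the 14 members that were not higher in hepatocytes, 3 were higher in replicate 3 than in both other HD28 arrays. The median difference from MSC over the 11 UGT members was 1.69 with all HD28 arrays and -0.06 without replicate 3, beside -0.08 and -0.09 over all genes.

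Marker sums of Kupffer cells and endothelium were higher in this array, and those of other liver cells were not all so. The summed signal of 10 Kupffer cell markers was 9.18 in HD28 replicate 3, 7.998 and 8.11 in replicates 1 and 2, and 10.07 to 11.87 in hepatocytes, and 0 of them were under the lower quartile in replicate 3. For 8 markers of liver endothelium the sums were 8.40, against 6.90 and 7.34, and 9.42 to 11.18 in hepatocytes. Every marker of both lists but Cd68 (6.095 against 6.51 and 6.14) was higher in replicate 3 than in replicates 1 and 2. The endothelial sum followed Clec4g (7.32 against 4.14 and 4.89). Adgre1 (3.643 against 3.255 and 3.589), Pecam1 (3.44 against 3.08 and 3.21) and Emcn (3.45 against 3.26 and 3.34) differed little. The sum of 5 cholangiocyte markers was 8.973 in replicate 3 and 8.971 and 8.781 in the others, that of 4 lymphocyte markers 6.49 against 6.27 and 6.40, and that of 5 stellate cell markers 11.71 against 12.41 and 12.58. The stellate sum followed Acta2 (11.66 against 12.39 and 12.56), which was 13.30 to 13.47 in MSC. Lrat was higher in replicate 3 (3.29 against 2.60 and 2.64) and Des lower (5.37 against 5.51 and 5.69). Gfap and Ngfr lay within the range of the others. The stromal sum was 15.13 in replicate 3 and 15.28 and 15.09 in the others. The actin 3′ minus 5′ difference, a measure of RNA quality, was 0.94 in replicate 3, 0.29 and 0.23 in the other HD28 arrays and 0.66 to 1.24 in hepatocytes. Their part in these values was not tested.

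**Figure D3:**
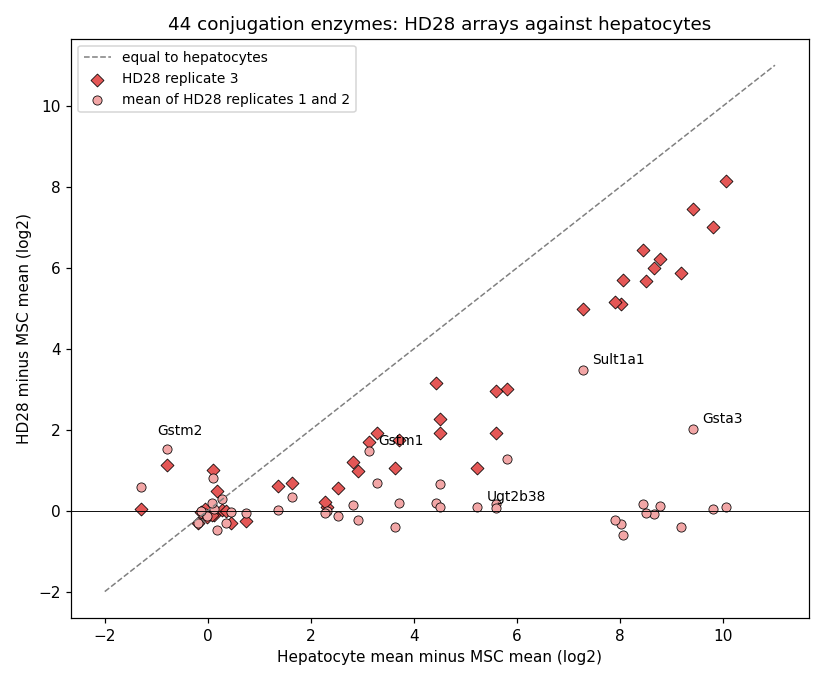
Each member's difference from the MSC mean in hepatocytes (horizontal axis, log2) and in HD28 (vertical axis, log2), with diamonds for HD28 replicate 3 and circles for the mean of HD28 replicates 1 and 2. The circles lie near 0 for most members, and the highest are Sult1a1 at 3.48, Gsta3 at 2.02, Gstm2 at 1.52, Gstm1 at 1.47 and Gstk1 at 1.27. The diamonds follow the hepatocyte differences at a lower level.

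The dHD28 cells were set against HD28 to see how the families stood once the differentiation medium had been withdrawn. Of 44 members 6 fell and 0 rose by limma, where 8.82% of all genes changed, 4.19% down and 4.63% up. Leaving out HD28 replicate 3 gave 4 down and 0 up, where 7.35% of all genes changed, 3.44% down and 3.91% up. Sult1a1 had 3.53, 3.67 and 3.63 in dHD28, against the HD28 values above, with a fall of 17.9-fold (log2 -4.16 ± 0.36, adjusted p = 1.4e-05). All dHD28 arrays were at the MSC level.

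Gstm1 had 8.85, 9.16 and 9.33 in dHD28, 4.29-fold below HD28 (log2 -2.10 ± 0.28, adjusted p = 0.00038). Gstm2 had 9.45, 9.68 and 9.94, 3.19-fold below HD28 (log2 -1.68 ± 0.27, adjusted p = 0.0013). Gsta3 had 3.17, 3.16 and 3.01 and fell by 3.56 on the log2 scale (adjusted p = 0.035), and by 1.75 (adjusted p = 0.00056) without HD28 replicate 3. Its second probe set, at -2.18 (adjusted p = 0.23 among all probe sets), did not pass. These members did not overlap between dHD28 and HD28. Gstm6 fell by 1.44 (adjusted p = 0.016) and Gstt3 by 1.23 (adjusted p = 0.047) on the log2 scale. When HD28 replicate 3 was left out, the Gstm6 difference was -0.91, under the 2-fold limit, and that of Gstt3 was -0.82 (adjusted p = 0.18). The Gsta3 call ended without any 1 of the dHD28 arrays (adjusted p = 0.092, 0.089 and 0.070). With the replicate number as a block 2 more members fell. Gstk1 differed by -1.98 (log2), with an adjusted p of 0.011 in the blocked fit and 0.055 in the unblocked one. Gstt1 differed by -1.16 (log2), with an adjusted p of 0.0075 blocked and 0.11 unblocked. All 3 Ugt1a probe sets fell in dHD28, by 2.81, 2.67 and 3.05 on the log2 scale (adjusted p = 0.0079, 0.022 and 0.0091), and 2 of them without HD28 replicate 3.

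Set against MSC, dHD28 had 0 of 44 members changed, where 0 of all genes passed. At an unadjusted p under 0.05 limma gave 0 members, against 205 genes (1.13%). The differences were within 0.5 log2 units in 41 members, and the largest was that of Gsta2, with 3.00, 3.00 and 3.02 in dHD28 and 3.09, 4.28 and 3.32 in MSC (log2 -0.56 ± 1.19). Gstm1 was next at -0.55 ± 0.28. The SE of Gsta2 includes the spread of HD28, where its SD was 3.63, against 0.01 in dHD28 and 0.63 in MSC. In members with a large gap of HD28 replicate 3, the missing calls therefore say little. The dHD28 and MSC comparisons with HD28 share the HD28 arrays.

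**Figure D4:**
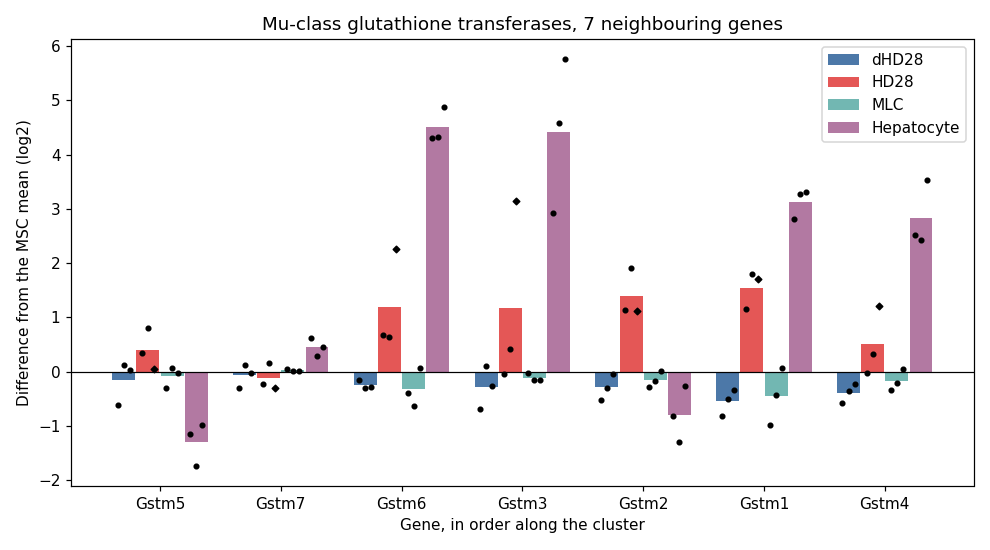
Difference from the MSC mean (log2) of the 7 neighbouring mu-class genes in dHD28, HD28, MLC and hepatocytes, with bars for the mean of 3 arrays, points for arrays and a diamond for HD28 replicate 3. Hepatocyte bars are high for Gstm6, Gstm3, Gstm1 and Gstm4 and below 0 for Gstm5 and Gstm2, while Gstm2 and Gstm1 have the tallest HD28 bars.

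Comparison of hepatocytes with MSC gives the span over which the other groups can be read. Of 44 members 30 rose and 1 fell, where 30.1% of all genes changed, 11.8% up and 18.3% down. The median member difference was 3.20 log2 units, beside 0.04 over all genes. In bulk samples, fewer cells of a type and less RNA per cell cannot be told apart. Hepatocyte arrays also had the highest Kupffer, endothelial and lymphocyte marker sums of the series. The actin 3′ minus 5′ difference was 0.66, 1.24 and 1.23 in these arrays, against 0.13, 0.36 and 0.44 in MSC. The part of other cell types and of RNA quality in the member values was not tested.

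Of the UGT members 10 of 11 rose, and Ugt8a, which makes galactosylceramide for myelin, did not. Ugt2b5 had 12.23, 12.24 and 11.99 in hepatocytes, against 2.19, 2.01 and 2.11 in MSC (log2 10.05 ± 1.5, adjusted p = 9.1e-05). This SE pools the spread of all groups, and the SD of Ugt2b5 was 4.64 in HD28, 0.14 in hepatocytes and 0.09 in MSC. Ugt2b1 (9.80), Ugt2b34 (9.17), Ugt2a3 (8.66), Ugt2b35 (8.49) and Ugt2b36 (8.44) rose by similar log2 differences. The MSC means of these 6 genes were under the lower quartile, so the sizes are approximate. The same holds for 12 of the 31 members called in this comparison, with Gsta3, Sult2a8, Sult1d1 and Sult1b1 among them. Ugt3a2 had 11.87, 11.38 and 11.77 in hepatocytes, against 4.15, 3.50 and 3.71 in MSC, and rose by 7.89. Its neighbour Ugt3a1 rose by 3.62, with no overlap.

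Of the GST members 14 of 20 rose and 1 fell. The alpha-class genes Gsta3 (log2 9.41) and Gsta2 (8.05) rose by more than Gsta4 (1.63), which conjugates the lipid peroxidation product 4-hydroxynonenal and had 8.78, 9.42 and 9.72 in MSC. Gstk1 rose by 5.80, the theta-class genes Gstt2, Gstt1 and Gstt3 by 5.60, 3.71 and 3.27, and Gstz1, the maleylacetoacetate isomerase of tyrosine breakdown, by 4.51. Among pi-class genes Gstp3 rose by 2.92 and Gstp1 by 1.36. Gstp1 had 13.42, 13.46 and 13.36 in hepatocytes, against 12.32, 11.87 and 11.95 in MSC. Gstm5 was the member that fell, with 8.75, 8.17 and 8.92 in hepatocytes, against 9.95, 9.93 and 9.84 in MSC (log2 -1.29 ± 0.25, adjusted p = 0.00071).

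Mu-class members thus differed among themselves, with Gstm6 (4.501), Gstm3 (4.42), Gstm1 (3.13) and Gstm4 (2.82) higher in hepatocytes and Gstm5 lower. They are close paralogs, and the Gstm1 and Gstm3 values come from probe sets marked as matching related sequences. Of 4 Gstm1 probe sets, tested among all probe sets, 4 rose in hepatocytes and 3 in HD28. Gstm7 is uncertain: the probe set used here differed by 0.45 between hepatocytes and MSC, while its other probe set differed by 3.98 (adjusted p = 1.3e-06). In dHD28 against HD28 the set used differed by 0.06 and the other by -1.40 (adjusted p = 0.021). From hepatocytes the other set differed by -2.94 in HD28 and -4.34 in MLC (adjusted p = 2.2e-05 and 6e-07).

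Of the SULT members 6 of 13 rose. Sult2a8, which sulfates bile acids in mouse, had 12.45, 12.41 and 11.93 in hepatocytes, against 3.49, 3.47 and 3.49 in MSC (log2 8.78 ± 1.14, adjusted p = 2.8e-05). Sult1d1, which sulfates catecholamines, rose by 8.01, Sult1a1 by 7.28, Sult1b1, which sulfates thyroid hormones, by 5.58, Sult1c2 by 2.53 and Sult5a1 by 2.31. The estrogen sulfotransferase Sult1e1 had 3.28, 4.22 and 3.16 in hepatocytes and 2.92, 2.64 and 2.92 in MSC and did not pass.

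Some members varied widely among the hepatocyte arrays, and these were chosen after their values were seen. Sult5a1 had 9.002, 6.04 and 5.81 in hepatocyte replicates 1, 2 and 3, an SD of 1.78 that was larger than that of 99.6% of all genes in this group. Ugt2b38 (9.70, 7.72 and 6.94) and Ugt2b37 (5.45, 4.73 and 3.26) were likewise highest in replicate 1. Gstm3 (9.07, 10.73 and 11.91) and Gstt3 (7.55, 8.43 and 9.16) were lowest in it. Ugt2b34 (11.83, 12.45 and 12.17) varied less. Hepatocyte replicate 1 is also the array of high spike-in signal in this group, and its Kupffer sum was 10.07, against 11.43 and 11.87 in the others. Their part in this spread was not tested.

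**Figure D5:**
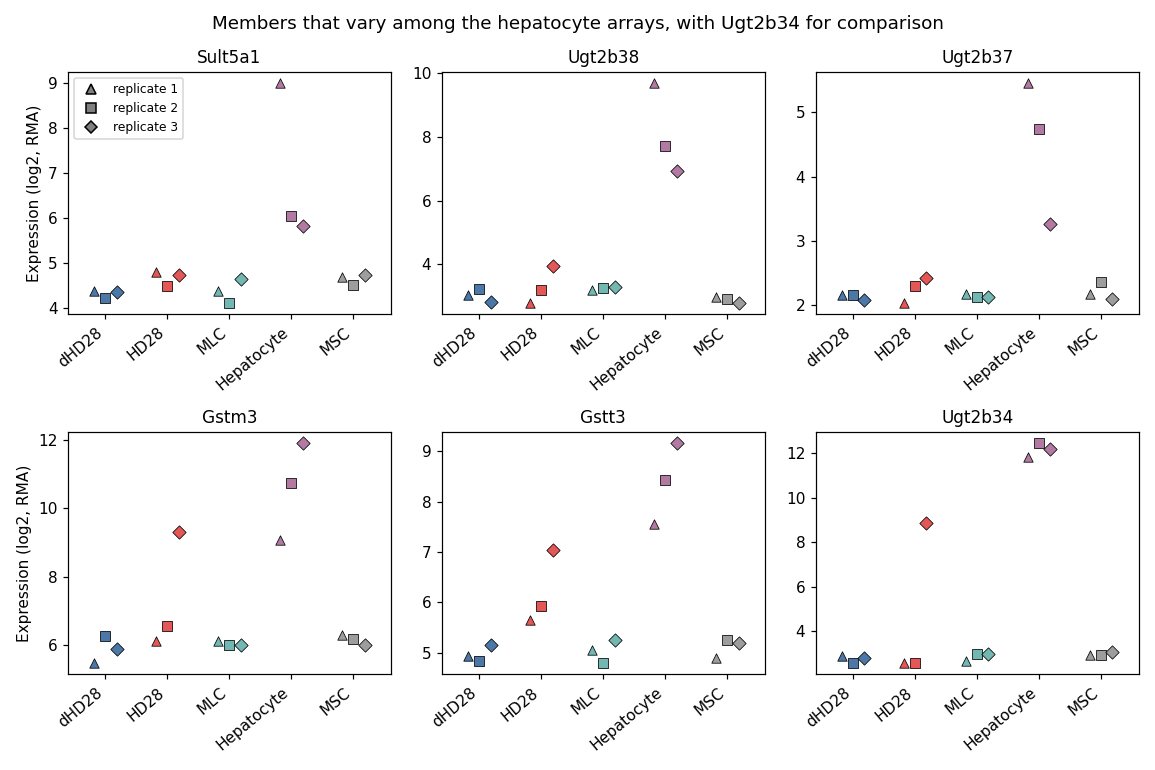
Log2 RMA value by array for 5 members that vary among the hepatocyte arrays and for Ugt2b34, with triangles, squares and diamonds for replicates 1, 2 and 3; vertical axes differ and do not start at 0. Replicate 1 is the highest hepatocyte array in Sult5a1, Ugt2b38 and Ugt2b37 and the lowest in Gstm3 and Gstt3.

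HD28 cells remained below hepatocytes in most of the families. By limma 30 members were lower and 2 higher in HD28 than in hepatocytes, where 26.5% of all genes changed, 11.2% lower and 15.3% higher. The counts without HD28 replicate 3 were again 30 and 2, where 27.2% of all genes changed, 11.7% lower and 15.5% higher. Ugt2b34 had 2.57, 2.58 and 8.85 in HD28, against 11.83, 12.45 and 12.17 in hepatocytes (log2 -7.48 ± 1.17, adjusted p = 0.00017, and -9.57 without HD28 replicate 3). Ugt2b1, Ugt2b5 and Ugt2a3 differed by -7.43, -7.27 and -6.72 with all arrays and by -9.76, -9.95 and -8.74 without HD28 replicate 3, so the order of these members rests on that array. HD28 replicates 1 and 2 were under the lower quartile in all 4, so the sizes are approximate. Gstm3 passed with arrays that overlapped, 6.10, 6.57 and 9.30 in HD28 and 9.07, 10.73 and 11.91 in hepatocytes.

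The smallest falls that passed were in Gstm1 (-1.58), Gsta4 (-1.18) and Gstp1 (-1.15). Sult1a1 was 9.85-fold below hepatocytes (log2 -3.30). Gstm2 was 4.54-fold higher in HD28 (log2 2.18 ± 0.27, adjusted p = 2.4e-05), with hepatocyte values of 9.15, 8.68 and 9.72. Gstm5 was 3.22-fold higher, with 10.25, 10.71 and 9.95 in HD28.

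The MLC, derived from hepatocytes per the labels, lacked nearly the whole hepatocyte pattern. Their stromal marker sums, which follow the collagen genes, were 14.87, 14.53 and 14.77. Whether the hepatocytes lost the pattern or other cells took their place was not tested. Against hepatocytes 30 members were lower and 1, Gstm5, was higher, where 30.5% of all genes changed, 12% lower and 18.4% higher. Ugt2b5 had 1.90, 2.49 and 2.23 in MLC (log2 -9.95 ± 1.5 from hepatocytes, adjusted p = 9.8e-05), Gsta3 had 3.05, 2.91 and 2.88 (log2 -9.31) and Sult1a1 had 3.39, 3.62 and 3.92 (log2 -7.43 ± 0.36, adjusted p = 1.1e-08). None of these overlapped with hepatocytes. In 12 of the 31 members called, Ugt2b5 and Gsta3 among them, the MLC mean was under the lower quartile, so the sizes are approximate. Between HD28 and hepatocytes the HD28 mean of all arrays was under it in 3 of the 32 called. The mean of HD28 replicates 1 and 2 was under it in more, such as Ugt2b34, Ugt2b1, Ugt2b5 and Ugt2a3. Gstm5, at 9.60, 9.97 and 9.88 in MLC, was 2.30-fold above hepatocytes.

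Against MSC, MLC had 0 of 44 members changed, where 0 of all genes passed. At an unadjusted p under 0.05 limma gave 0 members and 91 genes (0.5%). All 44 members were within 0.5 log2 units, with Gstm1 the farthest at -0.45 ± 0.28. Both comparisons of MLC share its arrays, and the p that misses the threshold does not show equal levels. For members with a large gap of HD28 replicate 3, the pooled spread makes a call harder here too.

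Many members are neighbours in the genome. By their order in RefSeq (GRCm38.p6), 30 of the 44 lie in 7 clusters with at most 3 other coding genes between neighbours. The largest holds 11 members: Ugt2b34, Ugt2b1, Ugt2b35, Ugt2b36, Ugt2b5, Ugt2b37, Ugt2a3, Ugt2b38, Sult1b1, Sult1d1 and Sult1e1. All but Sult1e1 rose in hepatocytes over MSC. The next holds the 7 mu-class genes in the order Gstm5, Gstm7, Gstm6, Gstm3, Gstm2, Gstm1 and Gstm4, in which members moved in both directions. Gstt3, Gstt1, Gstt4 and Gstt2 form a cluster in which Gstt4 did not pass.

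Of the genes that make the cosubstrates (UDP-glucuronate, sulfate donor PAPS, glutathione and methionine-derived cysteine), 0 of 14 changed in HD28 against MSC, near the 6.77% of all genes. In hepatocytes against MSC 9 rose and 2 fell, where 11.8% of all genes rose and 18.3% fell. Their median difference from MSC was -0.01 in HD28 and 1.54 in hepatocytes (log2), beside -0.08 and 0.04 over all genes. Mat1a, the liver methionine adenosyltransferase, had 2.63, 2.70 and 9.35 in HD28, 11.67, 11.53 and 11.85 in hepatocytes and 2.80, 2.80 and 2.45 in MSC. The PAPS synthases went opposite ways in hepatocytes, with Papss2 3.59 higher and Papss1 1.93 lower than in MSC (log2 -1.93). Without HD28 replicate 3, Cth (log2 -1.70, adjusted p = 0.022) and Ahcy (log2 -1.87, adjusted p = 0.013) fell in HD28, where 3.06% of all genes fell. Ahcy, which clears S-adenosylhomocysteine, had 9.11, 9.15 and 11.10 in HD28 and 11.78, 10.73 and 10.52 in MSC.

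Among 19 other enzymes 4 rose and 2 fell in HD28 against MSC, where 3.24% of all genes rose and 3.52% fell. This list holds conjugating enzymes and also others, such as epoxide hydrolases and prostaglandin synthases. With HD28 replicate 3 left out 4 rose and 1 fell, with Ptges the call lost, where 2.7% of all genes rose and 3.06% fell. The median difference from MSC was 1.13 on the log2 scale with all arrays and 0.09 without replicate 3, beside -0.08 and -0.09 over all genes. Mgst1, a membrane-bound glutathione transferase, had 11.86, 12.46 and 12.66 in HD28, against 8.74, 9.95 and 10.33 in MSC (log2 2.65, adjusted p = 0.0036). The histamine methyltransferase Hnmt (2.79), the epoxide hydrolase Ephx1 (1.69) and the acetyltransferase Nat2 (1.28) also rose on the log2 scale. Gstcd (-1.36) and the prostaglandin E synthase Ptges (-1.02) fell. In dHD28 against HD28 6 of the 19 fell and 2 rose, where 4.19% of all genes fell and 4.63% rose, with Mgst1 at -3.04, Hnmt at -2.66 and Ephx1 at -1.80. With HD28 replicate 3 left out 5 fell and 2 rose, where 3.44% of all genes fell and 3.91% rose. Mgst2 was the call lost (log2 -1.93, adjusted p = 0.043 with that array, and -2.08, adjusted p = 0.069 without). In hepatocytes against MSC 14 of the 19 rose and 3 fell, beside 11.8% and 18.3% of all genes, with a median of 2.89.

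Of 15 xenobiotic receptors and regulators 0 changed in HD28 against MSC, near the background of 6.77% of all genes (5.77% without replicate 3, where 0 changed as well). In hepatocytes against MSC 7 rose and 0 fell, beside 11.8% and 18.3% of all genes. The median difference from MSC in HD28 was 0.19 with all arrays and -0.15 without replicate 3 (log2), beside -0.08 and -0.09 over all genes, and in hepatocytes it was 0.60, beside 0.04. The nuclear receptor Hnf4a had 4.92, 5.13 and 8.58 in HD28, 11.19, 10.68 and 10.88 in hepatocytes and 5.31, 5.10 and 5.24 in MSC. Of 10 NRF2 targets outside the families 0 changed in HD28, and 2 rose and 2 fell in hepatocytes, counts near these backgrounds, with medians of -0.26 and -0.36. Of 12 genes of conjugate transport and reversal, 1 fell in HD28, the exporter Abcc1, beside 3.52% of all genes. Its difference from MSC was -1.48 (log2, adjusted p = 0.026) with all arrays and -1.42 (adjusted p = 0.074) without replicate 3, so that the call was lost at nearly the same size. In hepatocytes 8 of the 12 rose and 2 fell, beside 11.8% and 18.3% of all genes. The list medians were 0.01 in HD28 (-0.13 without replicate 3) and 2.60 in hepatocytes, beside -0.08 (-0.09) and 0.04 over all genes.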

How the data were processed

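Total RNA (5 µg) of 15 samples was hybridised to Affymetrix mouse arrays, per the labels' protocols. The deposited table holds log2 values of 45101 probe sets made by RMA, per the submitters' processing notes, which give no version. RMA corrects background, equalises array distributions and summarises probes, so a global shift in RNA would be removed. Base 2 was inferred from the range of 1.32 to 14.15, since no source gives it. With arrays, precision is limited by how many were run. Annotation gave 1 symbol to 34945 probe sets, several to 932 and none to 9160, and 64 are controls. The 44 members have 56 probe sets.

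One limma model (version 3.58.1, R 4.3.3, lmFit and eBayes) held the means of the 5 groups over the 15 arrays, leaving 10 residual degrees of freedom, with two-sided p adjusted by Benjamini-Hochberg over 18193 genes. Changed means an adjusted p below 0.05 with a difference of 2-fold or more. Errors with log2 differences are SE from this model. Its spread is pooled over the 5 groups, so a large gap of HD28 replicate 3 widens the SE in comparisons without HD28 as well. Lower quartiles mark dim means, since the table has no detection calls. Probe sets that name several genes were tested among all probe sets. The summed signal of a marker list is the log2 of summed linear values. In each comparison the members named are up to 20 that changed most with no overlap between groups, with up to 6 changed genes of each other list. The members, lists and comparisons were chosen with earlier results of these data known. Same-number dHD28 and HD28 arrays deviated together (r = 0.321, 0.275 and 0.125), and arrays of the same number in both groups also have the same spike-in class. In simulated data the model recovered 76 of 100 genes changed by 1.5 log2 units in HD28 minus MSC and 100 of 100 changed by 3 log2 units. Alternatives changed the probe set rule, dim filter, scaling, variance model, arrays and blocks. A fit blocked on spike-in class that also left out HD28 replicate 3 was chosen after seeing the data.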

Additional observations from a re-analysis of the deposited data

Results flagged for a closer look

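Probe sets that name several genes lie outside the comparisons of members. In hepatocytes over MSC 4 of the 5 rose, where 11.8% of all genes rose in the model of genes. Of these, 3 are sets of the Ugt1a locus that share exons, so they are not separate results. The set that did not pass, shared by Ugt2a1 and Ugt2a2, was 0.85 log2 units higher (adjusted p = 0.00093), under the 2-fold limit. The set shared by Gsta1, Gsta2 and Gm3776 was 6.98 log2 units higher (adjusted p = 7.3e-05 by limma). It had 11.06, 12.05 and 11.25 in hepatocytes, against 4.54, 4.43 and 4.44 in MSC, and 9.51 in HD28 replicate 3, against 5.30 and 3.92 in HD28 replicates 1 and 2. The Ugt1a probe sets were 3.91, 3.51 and 4.84 log2 units higher in hepatocytes (adjusted p = 0.00012, 0.00091 and 4.7e-05).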

How the results depend on the processing

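Members changed numbered 5 in HD28 against MSC. They were 3 without probe sets ending in _x_at, _s_at or _a_at (37 members tested), 3 with only the arrays compared, 2 with only arrays of low spike-in signal, and 3 to 6 with 1 array left out, with 3 without MSC replicate 1, 2 or 3. The 6 in dHD28 against HD28 were 3 under each of these settings and 3 to 8 with 1 array left out, with 3 without dHD28 replicate 2. With 1 array left out the counts were 31 to 32 for hepatocytes against MSC, 32 to 33 for HD28 and 30 to 31 for MLC against hepatocytes, 0 for dHD28 and MLC against MSC, and 32 to 33 for the F test. With the replicate block 7 members changed in HD28 against MSC, with Gstk1 and Gstt3 added, and 8 in dHD28 against HD28, and no other count moved by over 1.5 times. Over 1191 alternative values of the 71 named changes, 1155 kept direction and call, 36 lost the call and 0 reversed, mainly in Gsta3, Gstm6 and Gstt3. With low spike-in arrays alone the rises of Gstm2 (log2 0.99), Gsta3 (log2 4.75) and Gstm6 (log2 1.43) in HD28 over MSC lost their calls. Under that setting Ugt2b5 also lost the call of its difference between HD28 and hepatocytes (log2 -5.90). The cause of these losses was not tested beyond fewer arrays or genes. Signals near the lower quartile limit the size of folds against MSC.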
